A study of Mus musculus with 176 samples.

Results

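The 9 genes described here encode both chains of the interferon-gamma receptor (*Ifngr1* and *Ifngr2*), 5 members of the Stat family of signalling proteins (*Stat3*, *Stat4*, *Stat5a*, *Stat5b* and *Stat6*) and a pair of suppressors of cytokine signalling (*Socs1* and *Socs3*). They were taken by symbol from a table of 53546 gene names, and all 9 were present. Each column of the table holds the reads of 1 mouse CD4 T cell, sequenced along the whole transcript by the Smart-Seq2 method. Cells came from the inguinal and para-aortic lymph nodes of female C57BL/6J mice that received P6, a peptide of apolipoprotein B, in complete Freund's adjuvant at 7 weeks of age and in incomplete Freund's adjuvant at 9 weeks, and whose nodes were taken at 11 weeks. All cells were sorted as TCRβ+ CD4+ CD44hi CD62L-, a gate for antigen-experienced helper T cells, so immunization was shared by both groups. P6+ cells bound tetramers of P6 on the class II molecule I-Ab (32 cells, all from 1 mouse), and P6- cells did not (sorted from the rest of the sample, with the mouse not named in the sources used here).

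In all, 161 cells passed limits on reads, genes and mitochondrial share, with between 522188 and 3401372 reads each, and the 15 that did not were P6-. Cells were also divided by reads of *Foxp3*, the gene of the transcription factor that defines regulatory T cells (T regs). Those with 10 reads or more are called *Foxp3*-high (11 P6+ and 19 P6- cells) and the rest *Foxp3*-low (21 and 110). The division fell in a gap, as the highest cell below it had 4 *Foxp3* reads and the lowest above it had 22. All P6+ cells carried name prefix 6, which 11 passing P6- cells shared, so that tetramer binding and name prefix can be told apart only with those 11 cells. Each group is a set of cells and not of animals, so no test between groups was possible, and the 95% intervals given below cover counting error only. A pooled level is the reads of a gene summed over the cells of a group divided by all reads of those cells and given as counts per 1000000 (cpm).

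Markers were checked against the gate. At least 1 of 7 T cell and gate genes, among them *Cd3e*, *Cd4* and *Cd44*, had 10 reads or more in all 32 P6+ cells and all but 3 P6- cells. Markers of CD8 T, B, myeloid or NK cells reached 10 reads in 2 P6+ cells, both through a B cell gene, and in 2 P6- cells, both through a CD8 gene. Of these 4 cells, 3 were *Foxp3*-high. Other T reg genes were also found in *Foxp3*-low cells. At least 1 of *Il2ra*, *Ikzf2*, *Ctla4* and *Tnfrsf18* had 10 reads or more in 18 of 21 P6+ and 66 of 110 P6- such cells. The log2 ratios of *Foxp3*-high to *Foxp3*-low cells were 0.76, 0.59, 0.57 and 0.74 in P6+ cells, in that order. In P6- cells they were 1.74, 3.64, 1.72 and 1.25, so the division set these genes apart less in P6+ cells.

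Interferon-gamma is bound by Ifngr1, the ligand-binding chain, and signals only when Ifngr2, the chain that carries Jak2, joins the complex. Most T cells have Ifngr1, whereas Ifngr2 is regulated, and T helper 1 cells are known for losing it. The other Stats serve other cytokines: Stat3 acts downstream of IL-6, IL-10 and IL-21, Stat4 of IL-12, Stat5a and Stat5b of IL-2 and IL-7, and Stat6 of IL-4. Stat5 maintains *Foxp3* expression. *Socs1* and *Socs3* are induced by Stats and feed back on receptors and Jak kinases, with Socs1 acting on the interferon-gamma receptor and Socs3 on the IL-6 receptor chain gp130.

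The receptor chains were the genes on which the data turned, so the sequence ahead of each is shown, to set the start regions of genes with unlike detection side by side. *Ifngr1* lies on chromosome 10 (GRCm38 chr10:19591949-19610229, + strand) and *Ifngr2* on chromosome 16 (chr16:91547072-91565623, + strand), both protein-coding and with no other annotated gene overlapping them. The 250 bases before the RefSeq start of each are given 5′ to 3′ for GRCm38.p6, at chr10:19591699-19591948 for *Ifngr1* and chr16:91546809-91547058 for *Ifngr2*, on the + strand. Capitals mark the match to a searched motif.
Ifngr1: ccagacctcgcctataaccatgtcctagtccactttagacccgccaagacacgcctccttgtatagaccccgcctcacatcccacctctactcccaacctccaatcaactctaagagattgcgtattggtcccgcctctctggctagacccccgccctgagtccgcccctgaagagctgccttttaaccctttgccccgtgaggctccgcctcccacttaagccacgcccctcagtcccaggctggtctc
Ifngr2: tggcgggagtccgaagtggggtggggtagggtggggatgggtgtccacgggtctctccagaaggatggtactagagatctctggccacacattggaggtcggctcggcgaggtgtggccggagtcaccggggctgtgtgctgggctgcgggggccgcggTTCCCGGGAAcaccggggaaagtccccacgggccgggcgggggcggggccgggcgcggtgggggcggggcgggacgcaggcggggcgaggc
The motifs searched, on both strands, were the Stat motif TTCNNNGAA, the wider Stat6 type TTCNNNNGAA and the forkhead motif TGTTTAC, which does not overlap the others. In the *Ifngr2* window 1 match to TTCNNNNGAA lay 91 to 82 bases before the start, and the *Ifngr1* window held none of the motifs. Of 32851 RefSeq start windows of the same length, 7.02% held TTCNNNGAA, 5.85% held TTCNNNNGAA and 3.17% the forkhead motif. Of the 9 genes, all of which had an entry, *Socs3* held 1 match to TTCNNNGAA, 154 to 146 bases before its RefSeq start, and the other 7 held none. A match is a description of letters and not a binding site.

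*Ifngr1* had the highest level of the 9 genes per length of transcript in both groups. Divided by the bases of the annotated exons, its pooled level was 545 cpm per kb in P6+ and 746 cpm per kb in P6- cells. The next gene in P6+ cells was *Stat3* at 113.6 cpm per kb, and in P6- cells *Socs3* at 131.1 and *Stat3* at 105.9 cpm per kb. *Stat4*, *Stat5a*, *Stat5b* and *Stat6* had pooled levels between 46.2 and 62.98 cpm per kb in P6+ and in all P6- cells. *Socs1* was the lowest in both groups, at 18.99 cpm per kb in P6+ and 17.7 in P6- cells. *Ifngr2* stood at 23.7 cpm per kb in P6+ and 71.95 in P6- cells.

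Each gene was abundant in some cells and nearly absent in the others, as the plot of each gene in each cell shows. All 161 cells had at least 1 *Ifngr1* read, but 4 P6+ and 42 P6- cells had only 1 to 9. A cell was therefore counted as having a gene at 10 reads or more, and the origin of lower counts was not tested. Because few cells carried some genes, a pooled level often rested on 1 cell.

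**Figure D1:**
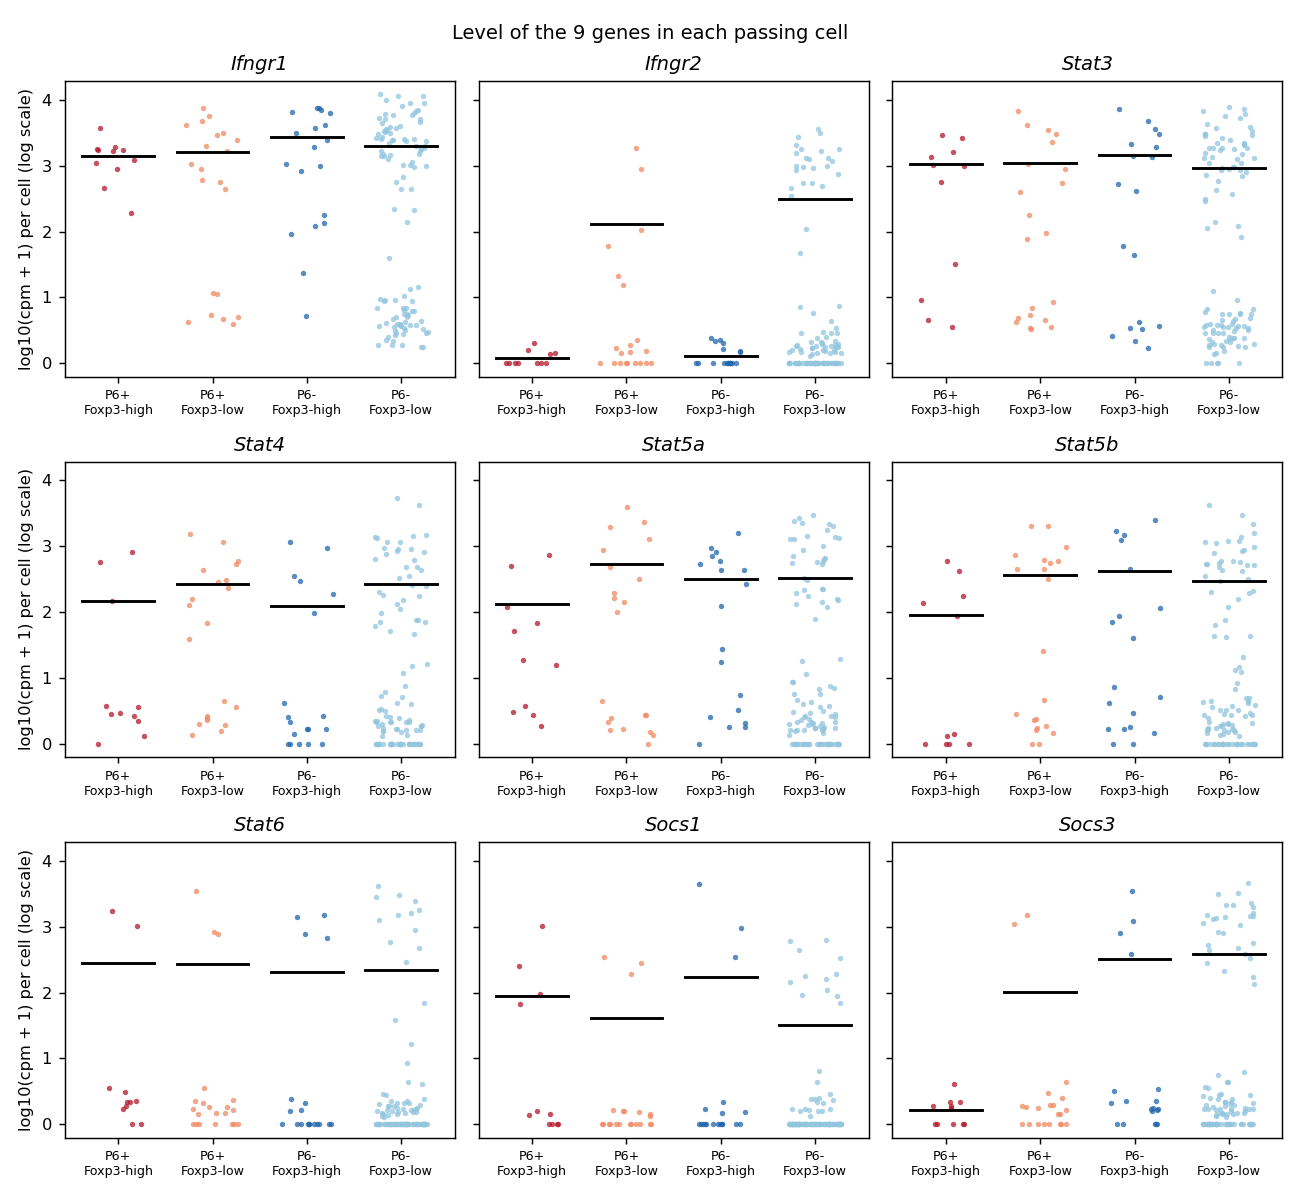
Level of each of the 9 genes in every passing cell, as log10 of cpm + 1 on a log scale, in 11 P6+ *Foxp3*-high, 21 P6+ *Foxp3*-low, 19 P6- *Foxp3*-high and 110 P6- *Foxp3*-low cells. Each point is 1 cell and the black line is the pooled level of the group; in *Ifngr2* no *Foxp3*-high cell rises above the lowest band, while in *Ifngr1* nearly all do.

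*Ifngr1* was carried by nearly all *Foxp3*-high cells. It had 10 reads or more in 28 of 32 P6+ cells (87.5%, 71.01 to 96.5%) and 87 P6- cells (67.4%, 58.6 to 75.4%). Across *Foxp3*, the count was 29 of 30 *Foxp3*-high cells (96.7%, 82.8 to 99.9%) and 86 *Foxp3*-low cells (65.6%, 56.9 to 73.7%), and the exception among the former had 9 reads. With every cell thinned to 522188 reads, the counts were 29 of 30 and 76 (58.02%).

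In single cells the *Ifngr1* level ran from 193 to 3689 cpm with a median of 1664 cpm in P6+ *Foxp3*-high cells, and from 2.92 to 7482 cpm with a median of 902 cpm in P6+ *Foxp3*-low cells. In P6- cells it ran from 4.32 to 7568 cpm (median 1956 cpm) among *Foxp3*-high and from 0.751 to 12094 cpm (median 619 cpm) among *Foxp3*-low cells. The pooled levels were close by comparison, at 1394 and 1620 cpm in P6+ and 2771 and 2014 cpm in P6- *Foxp3*-high and *Foxp3*-low cells. The *Foxp3*-high cells thus carried the gene more often, while among cells that carried it the medians were close, at 1664 and 1680 cpm in P6+ (11 and 17 cells) and 2219 and 2381 cpm in P6- cells (18 and 69 cells), *Foxp3*-high first. Between P6+ and P6- cells the pooled level was 1551 cpm (1541 to 1561 cpm) and 2124 cpm (2118 to 2130.3 cpm), a log2 ratio of -0.45 (-0.89 against the 11 P6- cells of the same name prefix), with overlapping ranges from 2.92 to 7482 cpm and from 0.751 to 12094 cpm.

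*Ifngr2*, the signalling chain, showed the opposite pattern across *Foxp3*. It had 10 reads or more in 0 of 11 P6+ and 0 of 19 P6- *Foxp3*-high cells, but in 6 of 21 P6+ (28.6%, 11.3 to 52.2%) and 26 of 110 P6- *Foxp3*-low cells (23.6%, 16.1 to 32.7%). Over both groups this was 0 of 30 *Foxp3*-high cells, which allows a share of up to 10%, against 32 *Foxp3*-low cells (24.4%, 17.3 to 32.7%). The 30 *Foxp3*-high cells held 13 *Ifngr2* reads in all, no more than 2 in any cell, and the *Foxp3*-low cells held 60560.

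The pooled *Ifngr2* level was 0.220 cpm (0.0599 to 0.563 cpm) in P6+ *Foxp3*-high and 128.8 cpm (125.4 to 132.3 cpm) in P6+ *Foxp3*-low cells. In P6- cells it was 0.305 cpm (0.139 to 0.579 cpm) and 317 cpm (314 to 320 cpm). The groups overlapped at the low end, since only 78 *Foxp3*-low cells had any *Ifngr2* read, as did 11 of 30 *Foxp3*-high cells. The 32 cells with the gene had 0 *Foxp3* reads in 25 cases and 1 or 2 in 7. The P6- *Foxp3*-high cells came from all 8 name prefixes, with 1 to 5 cells each, and none of those cells had *Ifngr2*.

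The *Foxp3* groups differed in other measures. The median number of genes per cell was 4618 in *Foxp3*-high and 4250 in *Foxp3*-low P6+ cells, and 3415 and 3446 in P6- cells. The median depth was 1375813 and 1931970 reads in P6+ and 1443564 and 1538460 reads in P6- cells, and the median mitochondrial share 1.16% and 1.49% in P6+ and 2.11% and 3.93% in P6- cells. Genes induced early on stimulation or by handling (*Fos*, *Jun*, *Junb*, *Egr1*, *Dusp1*, *Hspa1a* and *Hspa1b*) were summed in each cell. The median sum was 870 and 1211 cpm in P6+ and 3223 and 4156 cpm in P6- cells, *Foxp3*-high first, with overlapping ranges. The part of genes per cell, mitochondrial share and these genes in the pattern was not tested. Thinned to equal reads, *Ifngr2* was still in 0 of 30 *Foxp3*-high and in 29 *Foxp3*-low cells (22.1%).

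**Figure D2:**
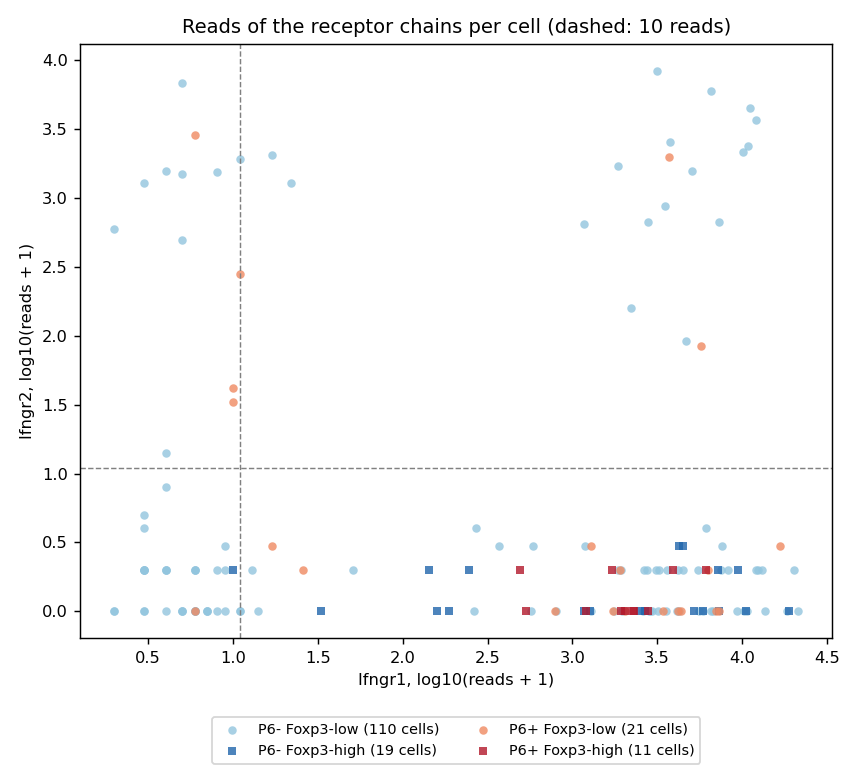
Reads of *Ifngr2* against reads of *Ifngr1* in each passing cell, both as log10 of reads + 1, with the limit of 10 reads dashed. The 30 *Foxp3*-high cells (squares) lie along the bottom, 29 of them right of the *Ifngr1* limit, and the 21 cells with both chains are all *Foxp3*-low.

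Both receptor chains were found together in 3 of 32 P6+ cells (9.38%, 1.98 to 25.02%) and 18 P6- cells (13.95%, 8.48 to 21.2%). All 21 such cells were *Foxp3*-low, which is 16.03% of the latter (10.2 to 23.5%). *Ifngr1* alone was found in 29 of 30 *Foxp3*-high and 65 *Foxp3*-low cells, and *Ifngr2* alone in 0 and 11. After thinning both chains were in 17 *Foxp3*-low cells (12.98%) and 0 of 30 *Foxp3*-high cells. Across the 161 cells the Spearman correlation of the *Ifngr1* and *Ifngr2* levels was -0.05, a description over cells processed alike.

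Between tetramer groups *Ifngr2* had a lower pooled level in P6+ cells. It had 10 reads or more in 6 of 32 P6+ (18.8%, 7.21 to 36.4%) and 26 P6- cells (20.2%, 13.6 to 28.1%), and after thinning to equal reads in 4 (12.5%) and 25 (19.4%). The 6 P6+ cells had 14.5, 19.9, 60.2, 104.4, 904 and 1847 cpm, and the 26 P6- cells from 6.45 to 3635 cpm with a median of 991 cpm. The groups overlapped, but 4 of the 6 P6+ cells were at or below 104.4 cpm. The pooled levels were 89.4 cpm (87.02 to 91.8 cpm) and 271 cpm (269 to 273 cpm), a log2 ratio of -1.59, and the single highest P6+ cell held 53.9% of the P6+ reads. In each of the 8 name prefixes the P6- level lay above that of P6+ cells, between 142.01 and 555 cpm.

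Among the Stats, *Stat3*, which transmits IL-6 and IL-10 signals, was the most often found. It had 10 reads or more in 23 of 32 P6+ cells (71.9%, 53.3 to 86.3%) and 66 P6- cells (51.2%, 42.2 to 60.1%), and in 21 of 30 *Foxp3*-high (70%) and 68 *Foxp3*-low cells (51.9%). These intervals overlapped. The single-cell level ran from 2.27 to 6777 cpm (median 289 cpm) in P6+ and from 0 to 7690 cpm (median 11.7 cpm) in P6- cells, so that medians differed while the pooled levels of 1082 and 1009 cpm lay within a log2 ratio of 0.10. Against the 11 P6- cells of the same name prefix, at 1807 cpm, the log2 ratio was -0.74. *Stat3* and *Stat5a* are neighbours on chromosome 11 (chr11:100885098-100939540, - strand, and chr11:100859351-100885169, + strand) whose exons share 72 bases on opposite strands, and whether counting used strand is not given in the sources used here.

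*Stat4*, which carries the IL-12 signal in T helper 1 cells (chr1:51987148-52107189, + strand), had lower pooled levels in *Foxp3*-high cells of both groups where *Foxp3* was divided at 10 reads. It was found in 3 of 11 P6+ *Foxp3*-high against 12 of 21 P6+ *Foxp3*-low cells, and in 6 of 19 against 39 of 110 P6- cells. The pooled level was 146 against 267 cpm in P6+ cells (log2 ratio -0.87) and 123.03 against 264 cpm in P6- cells (log2 ratio -1.10). The lowest and highest cells had 0 and 821 cpm in P6+ *Foxp3*-high, 0.341 and 1547 cpm in P6+ *Foxp3*-low, 0 and 1175 cpm in P6- *Foxp3*-high and 0 and 5424 cpm in P6- *Foxp3*-low cells, with overlap throughout. In P6+ cells the direction rested on that limit: with cells of 1 *Foxp3* read or more taken as *Foxp3*-high the log2 ratio was 1.17, with those of 1 to 9 reads left out it was 0.16, and without the highest cell of each group it was -1.98. In P6- cells it was short of 2-fold in 6 of 21 other settings, with log2 ratios up to -0.49, and without the P6- cells of name prefix 3 or 6 it was -0.51 and -0.69. *Stat4* shares 1033 exon bases with an overlapping transcript on the same strand, *Gm28177*, so its reads could be divided between them or left uncounted. The pooled levels were 230 cpm in P6+ and 244 cpm in all P6- cells, but 657 cpm in the 11 P6- cells of the same name prefix, 8 of which had the gene (log2 ratio -1.51).

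*Stat5a* and *Stat5b*, paralogues that both serve the IL-2 receptor, were the next most often found. *Stat5a* had 10 reads or more in 18 of 32 P6+ (56.2%, 37.7 to 73.6%) and 51 P6- cells (39.5%, 31.04 to 48.5%), and *Stat5b* (chr11:100780731-100850724, - strand) in 16 (50%, 31.9 to 68.1%) and 51 (39.5%, 31.04 to 48.5%). Across *Foxp3*, *Stat5a* was found in 19 of 30 *Foxp3*-high (63.3%, 43.9 to 80.1%) and 50 *Foxp3*-low cells (38.2%, 29.8 to 47.1%). Both were found together in 11 P6+ and 32 P6- cells, and their levels had the highest Spearman correlation of the 36 pairs of the 9 genes, 0.44 against a median of 0.07. Of the 50-base windows of *Stat5a* transcripts 8.21% occur exactly in *Stat5b* transcripts, and 10.98% the other way, and the part of this in the correlation was not tested.

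In P6+ cells the Stat5 genes had lower pooled levels in *Foxp3*-high cells, while their shares of cells had overlapping intervals. The pooled *Stat5a* level was 130.6 cpm in *Foxp3*-high and 527 cpm in *Foxp3*-low cells (log2 ratio -2.01), and the *Stat5b* level 90.8 and 365 cpm (log2 ratio -1.997). Single cells ran from 0.857 to 726 cpm and from 0 to 3878 cpm for *Stat5a*, and from 0 to 594 cpm and from 0 to 2051 cpm for *Stat5b*, with overlap. The share with *Stat5a* was 7 of 11 against 11 of 21 cells, and the median among cells that had it 66.4 against 489 cpm. In P6- cells the log2 ratios were -0.04 for *Stat5a* and 0.49 for *Stat5b*, the latter 1.05 without the cells of name prefix 8. Both differences in P6+ cells rested on where *Foxp3* was divided: with cells of 1 read or more taken as *Foxp3*-high, the log2 ratios were 0.28 and 0.04.

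*Stat6*, the Stat of IL-4 (chr10:127642986-127660957, + strand), was found in few cells of any group. It had 10 reads or more in 5 of 32 P6+ (15.6%, 5.28 to 32.8%) and 20 P6- cells (15.5%, 9.73 to 22.9%), and in 6 of 30 *Foxp3*-high (20%) and 19 *Foxp3*-low cells (14.5%). Single cells reached 3477 cpm in P6+ and 4166 cpm in P6- cells, with medians of 0.852 and 0 cpm. The pooled levels were 277 and 218 cpm and 1 cell held 46.6% of the P6+ reads. Across *Foxp3* the log2 ratios were 0.05 in P6+ and -0.10 in P6- cells, but -1.21 and 2.33 with cells of 1 *Foxp3* read or more taken as *Foxp3*-high. Its exons share 40 bases with *Nab2* on the opposite strand.

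A P6+ cell had a mean of 2.41 of the 5 Stat genes at 10 reads or more and a P6- cell a mean of 1.81, or 2.25 and 1.70 after thinning. The 11 P6- cells of the same name prefix had a mean of 2.36, or 2.27 after thinning, so that the difference was not seen against them. None of the 5 was found in 1 P6+ and 22 P6- cells, and all 5 in 0 and 4. P6+ cells also had more genes per cell, with a median of 4396 against 3432 in P6- cells, and the part of this in the Stat counts was not tested.

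**Figure D3:**
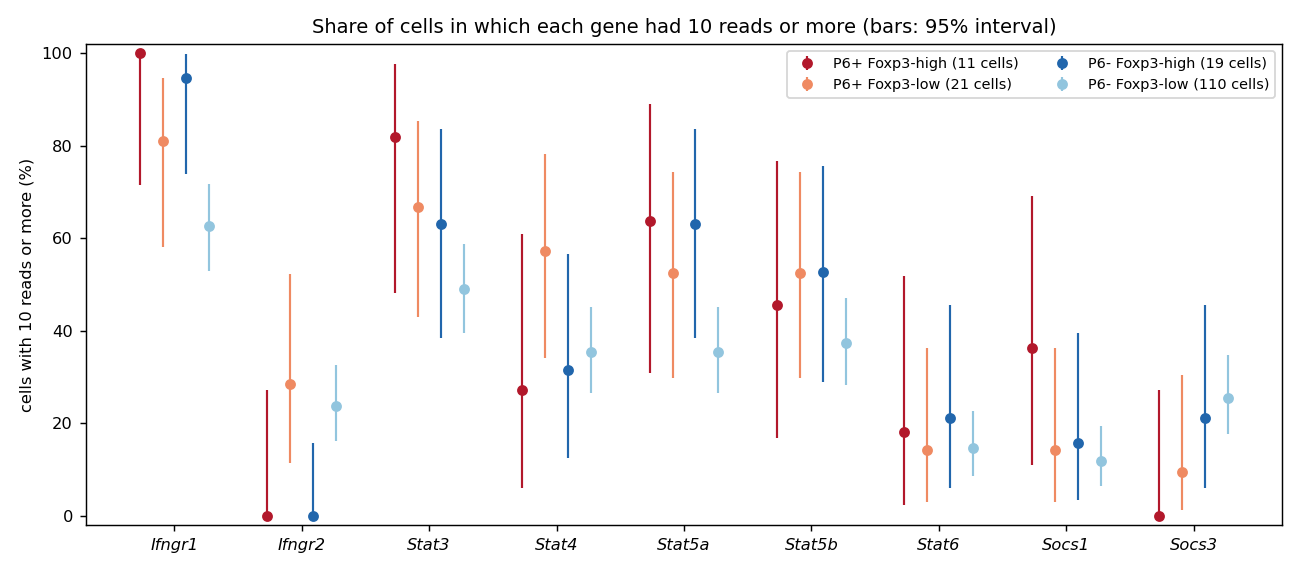
Share of cells with 10 reads or more of each gene, in percent, for the 4 groups of cells, with exact 95% binomial intervals as bars or, at 0, the share that a count of 0 cells allows. *Ifngr2* is at 0 in both *Foxp3*-high groups, *Ifngr1* is highest in them, and the bars of the Stat genes overlap.

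*Socs1*, an inhibitor of Jak kinases (chr16:10782240-10785536, - strand), was found in 7 of 32 P6+ (21.9%, 9.28 to 39.97%) and 16 P6- cells (12.4%, 7.26 to 19.4%). Single cells ran from 0 to 1020 cpm and from 0 to 4441 cpm, with medians of 0.171 and 0 cpm, and the groups overlapped. The pooled levels were 55.2 and 51.6 cpm. Against the 11 P6- cells of the same name prefix, which held 4 *Socs1* reads in all (0.259 cpm, 0.0706 to 0.663 cpm), the log2 ratio was 5.48. That size was set by the pseudocount, with 2.67 at 10 cpm and 7.27 at 0.1 cpm, and the 0 of 11 cells with 10 reads allow a share of up to 27.3%, above that of P6+ cells.

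Across *Foxp3*, *Socs1* was found in 4 of 11 and 3 of 21 P6+ and in 3 of 19 and 13 of 110 P6- cells, *Foxp3*-high first. The pooled level was 88.8 and 40.4 cpm in P6+ cells (log2 ratio 1.12) and 171 and 31.4 cpm in P6- cells (log2 ratio 2.41). Each rested on 1 *Foxp3*-high cell, which held 69.7% of the reads in P6+ and 70.4% in P6- cells. Without the highest cell of each group the log2 ratios were 0.22 and 1.14, and without the P6- cells of name prefix 4 that in P6- cells was 0.50. The intervals of the shares overlapped (23.3% of 30 *Foxp3*-high cells, 9.93 to 42.3%, and 12.2% *Foxp3*-low cells, 7.15 to 19.1%).

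*Socs3*, the inhibitor of signals through gp130 (chr11:117966079-117970047, - strand), was the member that differed most between P6+ and all P6- cells. It had 10 reads or more in 2 of 32 P6+ cells (6.25%, 0.766 to 20.8%) and 32 P6- cells (24.8%, 17.6 to 33.2%). Both P6+ cells, at 1081 and 1507 cpm, lay within the range of the P6- cells, which reached 4630 cpm, and the median among P6- cells with the gene was 1170 cpm. The intervals of the shares overlapped, and after thinning the counts were the same, 2 and 32 cells.

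The pooled *Socs3* level was 71.5 cpm (69.3 to 73.6 cpm) in P6+ and 379 cpm (376 to 382 cpm) in P6- cells, a log2 ratio of -2.39. In each of the 8 name prefixes the P6- level was higher than in P6+ cells, between 147 and 750 cpm. The 11 P6- cells of the same prefix had 297 cpm and 3 cells with the gene. *Foxp3*-high cells with *Socs3* numbered 0 of 11 in P6+ (a share of up to 27.3%) and 4 of 19 in P6- cells (21.1%), against 2 of 21 and 28 of 110 (25.5%) *Foxp3*-low cells. In P6- cells the pooled levels were 319 and 389 cpm, and without the highest cell of each group the log2 ratio went from -0.29 to -1.43. Without the cells of name prefix 2 it was -1.61, and with 1 *Foxp3* read as the limit 0.29.

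Genes induced early on stimulation or by handling of cells also had a lower summed level in P6+ than in all P6- cells. The summed level of *Fos*, *Jun*, *Junb*, *Egr1*, *Dusp1*, *Hspa1a* and *Hspa1b* ran from 3.34 to 7931 cpm (median 1152 cpm) in P6+ and from 3.53 to 32652 cpm (median 4156 cpm) in P6- cells. Of the 7 genes 5 were at least 2-fold lower in P6+ cells, beside 26.2% of all names, *Fos* was not (log2 ratio -0.68), and *Hspa1b* was under the limit on low levels. Against P6- cells of the same name prefix *Junb* (log2 ratio -2.45) and *Dusp1* (-1.97) were lower, beside 25.2% of all names, and *Jun* was higher, at 72.9 against 0.0648 cpm, beside 46.7%. The median mitochondrial share of reads was 1.29% in P6+ and 3.56% in P6- cells. The part of either in the *Socs3* and *Ifngr2* differences was not tested.

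**Figure D4:**
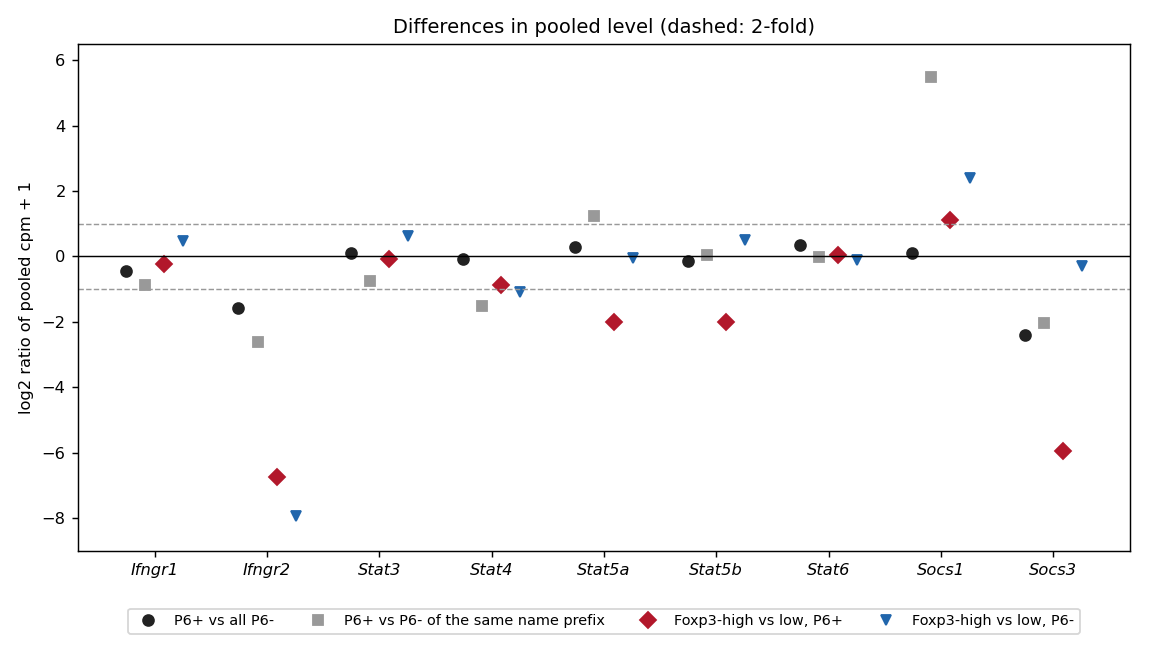
Log2 ratio of pooled cpm + 1 for each of the 9 genes in the 4 comparisons, with the 2-fold limits dashed. *Ifngr2* lies below the lower limit in all 4, *Socs3* in 3, and *Stat6* within the limits in all at the division of 10 *Foxp3* reads.

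Of the set, *Ifngr2* and *Socs3* were at least 2-fold lower in P6+ than in all P6- cells and 0 of the 9 genes were 2-fold higher, where 26.2% of 7807 gene names were lower and 23.8% higher. Against P6- cells of the same name prefix 2 genes were higher (*Socs1* and *Stat5a*) and 3 lower (*Ifngr2*, *Socs3* and *Stat4*), with 46.7% of 6958 names higher and 25.2% lower. The median log2 ratio of all names tested there was 0.70. *Stat4* lost its place without the highest cell of each group, at -0.76.

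Between *Foxp3*-high and *Foxp3*-low P6+ cells 1 gene was at least 2-fold higher (*Socs1*) and 4 lower (*Ifngr2*, *Socs3*, *Stat5a* and *Stat5b*), against 26.7% and 37% of 7037 names. In P6- cells 1 was higher (*Socs1*) and 2 lower (*Ifngr2* and *Stat4*), against 25.2% and 33.3% of 7418 names. The counts of the set were near these backgrounds. The log2 ratio of *Ifngr2* was -6.73 in P6+ and -7.93 in P6- cells, and its direction was the same in the 13 and 21 other settings tried. Its size depended on the settings: a pseudocount of 10 cpm gave -3.76 and -4.99, and *Foxp3*-high cells taken from 1 *Foxp3* read gave -6.76 and -1.16. The median log2 ratio of the 9 genes was -0.87 and -0.04, beside -0.27 and -0.13 for all names tested.

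The rest of the interferon-gamma pathway was read from lists of its known members and targets. *Ifng* itself had 10 reads in 0 P6+ and 4 P6- cells, all *Foxp3*-low, at 0.0337 and 8.39 cpm. *Stat2*, which serves type I interferon, was at 106.1 cpm in P6+ *Foxp3*-high against 24.01 cpm in P6+ *Foxp3*-low cells, with 10 reads in 3 and 1 cells. In these groups 1 cell held 73.3% and 98.99% of the *Stat2* reads, and 26.7% of all names were at least 2-fold higher. In P6- cells *Stat2* was at 53.7 and 44.9 cpm (log2 ratio 0.25), *Foxp3*-high first.

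Of 14 interferon-gamma response genes, 7 were at least 2-fold higher and 1 lower in P6- *Foxp3*-high cells, with a median log2 ratio of 0.89, beside 25.2% higher and 33.3% lower and a median of -0.13 over all names. The largest were the GTPase *Gbp5*, at 69.5 against 0.476 cpm and with 10 reads in 3 and 1 cells, and *Nlrc5*, an activator of class I genes that was lower, at 12.1 against 279 cpm. In P6+ *Foxp3*-high cells 4 were higher and 3 lower, near the 26.7% and 37% of all names, led by the GTPases *Gbp7* (620 against 19.1 cpm) and *Gbp2* (454 against 38.1 cpm). Between P6+ and all P6- cells 4 were higher and 1 lower, beside 23.8% and 26.2% of all names, led by *Irgm2* (162 against 40.97 cpm) and *Gbp3* (316 against 87.6 cpm). Against P6- cells of the same name prefix 9 were higher and 0 lower, with a median log2 ratio of 1.599, beside 46.7% higher and 25.2% lower and a median of 0.70 over all names. In those P6- cells *Gbp3*, *Gbp5*, *Irgm1* and *Iigp1* were at 0.518, 0.0648, 0.259 and 0.389 cpm, so the size of their ratios depended on the pseudocount. The log2 ratio of *Irgm1* was 5.86 there and -1.27 against all P6- cells. Many of these genes also answer type I interferon, and which signal they answered was not tested.

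Of the 4 Jak kinases, *Tyk2* (2.36 against 58.05 cpm) and *Jak2* (58.4 against 284 cpm) were at least 2-fold lower in P6+ *Foxp3*-high cells, whereas in P6- *Foxp3*-high cells *Tyk2* (123.9 against 15.9 cpm) and *Jak3* (214 against 88.9 cpm) were higher, where 37% of all names were lower in P6+ and 25.2% higher in P6- *Foxp3*-high cells. The *Tyk2* levels rested on few cells, as 1 cell held 97.7% and 58.7% of its reads in P6+ *Foxp3*-high and *Foxp3*-low cells, and 61.8% in P6- *Foxp3*-high cells. *Jak2* had 10 reads or more in 4 of 11 P6+ *Foxp3*-high and 6 of 21 P6+ *Foxp3*-low cells, so its share of cells was not lower. In these groups 1 cell held 50.2% and 41.8% of the *Jak2* reads. For *Jak3* 1 cell held 45.9% in P6- *Foxp3*-high and 43.8% in P6- *Foxp3*-low cells. Between P6+ and all P6- cells 0 of 4 differed by 2-fold. Of 14 other negative regulators, 4 were higher and 4 lower in P6+ than in all P6- cells, near the 23.8% and 26.2% of all names. They were led by *Pias1* (3.34 against 140.8 cpm, with 10 reads in 2 and 16 cells) and *Socs7* (30.6 against 0.0638 cpm, in 2 and 0 cells).

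Of 14 cytokine receptor chains, 13 were above the limit on low levels in P6+ against all P6- cells, 4 higher and 3 lower, again near the 23.8% and 26.2% of all names. The IL-12 receptor chain *Il12rb1* was at 103.2 against 2.48 cpm, carried by 4 P6+ cells and 1 P6- cell, and the IL-4 receptor chain *Il4ra* at 131.2 against 436 cpm. The partner chain *Il12rb2* had 1 read in P6+ cells. Of 7 Stat5 response genes, 3 were higher and 1 lower, beside the same shares of all names, led by *Bcl2* (0.0843 against 73.99 cpm, where 5 P6- cells had it and 1 of them held 70.5% of the reads) and *Socs2* (122.7 against 30.3 cpm). Of 5 lineage factors 4 were above the limit on low levels and 0 of them were past 2-fold in that comparison.

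Few genes resembled the 9 across cells. Among 407 names with 10 reads or more in at least 50% of the 161 cells, the highest Spearman correlation with a member was that of *Fxyd5* with *Ifngr1*, at 0.36, followed by *Cd2* at 0.29. For *Ifngr2* they were *Cd28* (0.28) and *Gimap6* (0.26), for *Stat3* *Tnfrsf4* (0.26) and *Capzb* (0.26), and for *Stat4* *Odc1* (0.27) and *Gnb1* (0.25). *Stat5a* was nearest to *Cytip* (0.28) and *Gm5905* (0.27), *Stat5b* to *Rpsa-ps10* (0.25) and *Rpsa* (0.22), and *Stat6* to *Gm8355* (0.27) and *Gm15459* (0.27). *Socs1* had a value of 0.24 with *H2-Q6*, and *Socs3* was nearest to *Eif4g2* (0.21) and *Junb* (0.21). All are weak values over cells that differ in depth and gene number. *Stat6* correlated at 0.34 with the number of genes per cell, the highest such value of the 9, and *Ifngr2* at -0.07.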

How the data were processed

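The authors mapped reads with STAR against the mouse genome GRCm38 with Ensembl annotation and deposited whole-number counts of reads per gene name for 176 cells, not normalized and not filtered. The submitters' processing notes name STAR 2.6.0a, SAMtools 0.1.19 and FastQC 0.11.7. The tetramer sign in the deposited cell table matched the label of all 176 cells. Reads carry no molecular identifiers, so a count is not a molecule.

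Repeated names (81) were averaged. Cells with at least 500000 reads, 2000 genes and under 10% mitochondrial reads were kept, leaving 129 of 144 P6- and all 32 P6+ cells, and 7 cells failed on reads or genes and 8 on mitochondrial share. The authors also removed cells with a low total mapping rate, which was not applied here because no mapping rate was among the values used. More P6- cells were therefore kept here than in the study, while all P6+ cells were kept in both. No setting was limited to the P6- cells that the study kept. The part of the added P6- cells in the differences between P6+ and P6- cells was not tested. Counts were summed over a group and given as cpm with exact Poisson 95% intervals, shares with exact binomial (Clopper-Pearson) 95% intervals, and a count of 0 with the limit of 3 counts. Log2 ratios used a pseudocount of 1 cpm, and 2-fold was set against names with a mean of at least 10 cpm. With single cells as samples no test was made, and no p-value is given. The computation of the pooled ratios was checked on simulated pooled counts. These held no variation between cells, so the check covers the arithmetic only. Thinning drew 522188 reads per cell without replacement. Exon lengths and positions came from GENCODE M21 (GRCm38), start regions from RefSeq (GRCm38.p6). Tables were computed with pandas 2.3.3 on Python 3.11.15, with scipy 1.17.1 for intervals, numpy 2.4.6 for thinning and matplotlib 3.10.9 for figures. Alternatives included factors from edgeR 4.0.16 and DESeq2 1.42.0 under R 4.3.3 on pooled sums.

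Genes named are the 9 members, for each pathway list the 2 with the largest difference past 2-fold, for each member its 2 most similar genes, and further genes of the lists chosen after their values were seen, and some genes that this rule names are not reported here. The members and lists were chosen with earlier results of these data known.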

Additional observations from a re-analysis of the deposited data

How the results depend on the processing

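The number of the 9 genes past 2-fold stayed within 1.5 times its value in all 4 comparisons under equal weight of cells, other scaling factors, pseudocounts of 0.1 and 10 cpm, other cell filters, thinning, other *Foxp3* limits and leaving out the highest cell of each group. It was 2 in each setting for P6+ against all P6- cells, also when the P6- cells of 1 name prefix were left out. For *Foxp3* within P6- cells it ran from 2 to 4 when 1 prefix was left out. *Ifngr2* and *Socs3* kept their direction in P6+ against P6- cells in all 18 settings, with log2 ratios from -2.44 to -1.37 and from -3.14 to -2.01. Of the single genes past 2-fold, *Stat5a* and *Stat5b* within P6+ cells changed sign when 1 *Foxp3* read sufficed, to 0.28 and 0.039, and *Socs1* went from 1.12 to 0.56. Of genes short of 2-fold at 10 reads, *Stat4* went to 1.17 and *Stat6* to -1.21 within P6+ cells, and *Stat6* to 2.33 within P6- cells. The cause was not tested. The same limit gave 7 of 64 *Foxp3*-high cells with *Ifngr2*, against 0 of 28 at 100 reads, a setting chosen after the data were seen, as were leaving out the 4 cells with markers of other lineages (0 of 27) and leaving out P6+ cells (0 of 19). Both receptor chains at 1 read or more, in place of 10, gave 50% of P6+, 56.6% of P6-, 36.7% of *Foxp3*-high and 59.5% of *Foxp3*-low cells. DESeq2 factors moved all ratios within P6- cells by 0.11 on the log2 scale. No paired analysis was possible because no result comes from a test and the replicate number of a cell only names it. Name prefixes are shared between groups, and ratios within prefix 6 were computed for each of the 9 genes. With 30 *Foxp3*-high cells, a gene carried by fewer than 10% of them could be missed.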
